A study of Mus musculus with 4 samples.

Results

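The 10 genes described here encode the enzymes that build fatty acids and then modify them: Acly, Acaca and Fasn for synthesis from citrate, Scd1, Scd2, Fads1 and Fads2 for desaturation, and Elovl1, Elovl5 and Elovl6 for elongation. They were taken as every probe set whose platform annotation gave 1 gene symbol, that symbol being among these 10, which gave 28 probe sets of the 34945 single-gene probe sets on the array and 10 genes of 18193. The RNA came from mouse helper (CD4+) T lymphocytes, isolated as naive cells from spleen and from peripheral and mesenteric lymph nodes and grown for 7 days with the T cell activating lectin concanavalin A (2.5 ug/ml). One group received human TGFb1 (hTGFb1, 1 ng/ml), a cytokine that steers T cell fate, plus the steroid hormone progesterone (2000 ng/ml), and the other received hTGFb1 (1 ng/ml) alone, with 2 arrays in each group. All 4 samples therefore carried TGFb1 and concanavalin A, and no culture without TGFb1 was analysed here. The labels give no strain, age or sex, and do not say whether cultures or animals differed between the 2 arrays of a group, so each p-value rests on array-to-array spread that may be no more than technical.

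Fatty acid synthesis starts in the cytosol. ATP citrate lyase (Acly) turns citrate into acetyl-CoA, acetyl-CoA carboxylase (Acaca) makes malonyl-CoA from it in the committed step, and fatty acid synthase (Fasn) joins these units into the saturated fatty acid palmitate. The second set of enzymes sits in the endoplasmic reticulum and works both on palmitate and on fatty acids from outside the cell: stearoyl-CoA desaturases (Scd1, Scd2) make monounsaturated chains, the front-end desaturases (Fads1, Fads2) and Elovl5 make long polyunsaturated chains from dietary precursors, Elovl6 extends palmitate, and Elovl1 extends very long saturated chains. Many of these genes are textbook targets of the SREBP transcription factors, and activated T cells switch lipid synthesis on when they grow and divide.

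Promoter sequences of 7 of the 10 genes were found in the RefSeq promoter set of build GRCm38.p6, in 8 windows, and Scd1, Scd2 and Fads1 had none there. The 250 bases before the annotated start are printed for Fads2 and Elovl5, which fell with progesterone, and for Acly, which did not pass the test, so that the starts of genes with different outcomes can be read side by side. The Fads2 window is chr19:10101504-10101753 on the minus strand, the Elovl5 window is chr9:77917115-77917364 on the plus strand, and the Acly window is chr11:100528001-100528250 on the minus strand. Capitals mark matches on either strand to the CCAAT box (CCAAT), the GC box (GGGCGG), the E box (CACGTG) and the core of the sterol regulatory element, through which SREBP acts, in a strict (TCACNCCAC) and a wider spelling (TCACNCNAC) that contains the strict one. These spellings were settled on after the windows had been looked at, and no matches to different motifs overlap in these 3 windows.
Fads2: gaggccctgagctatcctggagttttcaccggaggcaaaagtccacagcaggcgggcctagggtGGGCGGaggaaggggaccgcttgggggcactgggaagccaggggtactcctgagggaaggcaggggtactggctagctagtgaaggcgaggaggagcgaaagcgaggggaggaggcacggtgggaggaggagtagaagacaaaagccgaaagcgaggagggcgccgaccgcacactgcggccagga
Elovl5: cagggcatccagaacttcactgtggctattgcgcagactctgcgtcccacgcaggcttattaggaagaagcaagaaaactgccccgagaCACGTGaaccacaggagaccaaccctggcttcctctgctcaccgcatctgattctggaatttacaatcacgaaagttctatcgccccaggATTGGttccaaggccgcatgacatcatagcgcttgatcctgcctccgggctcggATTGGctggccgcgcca
Acly: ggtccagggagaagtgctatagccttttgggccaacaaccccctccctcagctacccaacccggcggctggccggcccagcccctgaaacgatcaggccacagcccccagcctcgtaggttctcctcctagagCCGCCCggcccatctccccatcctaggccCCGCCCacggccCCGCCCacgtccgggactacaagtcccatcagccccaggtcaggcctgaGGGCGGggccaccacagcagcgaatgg

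Neither spelling of the sterol element core had a match in any of the 8 windows, against 1.05% (strict) and 2.26% (wider) of 32851 mouse windows of the same length. Shares this low leave most sets of 8 windows without a match, so the absence does not set these genes apart. Scd1, Scd2 and Fads1 had no window to search. The Fads2 window held 1 GC box, the Elovl5 window 2 CCAAT boxes and 1 E box, and the Acly window 4 GC boxes. Over all windows a CCAAT box was found in 33.8%, a GC box in 32.7% and an E box in 6.02%. These matches describe the letters of the windows and are not binding sites, and no motif was found in both the Fads2 and the Elovl5 window.

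The trimmed mean signal of the arrays was 138.5 and 108.3 with progesterone, against 155.4 and 146.2 with TGFb1 alone, so the arrays were quantile normalised before testing. The correlation of log2 signals across the 22518 tested probe sets, which are not independent, was 0.983 between the progesterone arrays, 0.98 between the TGFb1-alone arrays and 0.943 to 0.962 between groups. Markers of the labelled cell type were bright on all 4 arrays. The summed deposited signal of 9 T cell marker genes was 31276 and 24683 with progesterone, against 39200 and 37403 with TGFb1 alone, and 0 of their 14 tested probe sets passed the test. The groups differed in sex-linked genes, with Xist probe sets higher by 3.09 to 5.82 and Eif2s3y, Kdm5d and Uty probe sets lower by values between -5.18 and -1.30 (log2, progesterone minus TGFb1 alone). The sex-linked difference ran with the treatment on all 4 arrays. Its part in the results below was not tested and cannot be told apart from that of progesterone. This also holds for genes outside X and Y, and the 10 genes lie on chromosomes 3, 4, 9, 11 and 19.

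Progesterone-treated cells had less signal for the desaturases, whereas the de novo synthesis genes did not pass the test. Of the 28 probe sets, 23 passed the level filter, a normalised mean over the 4 arrays above 24.8, and 5 dim ones did not. Of those 23, 9 were lower with progesterone at an adjusted p under 0.05 (limma over all 22518 probe sets, Benjamini-Hochberg) and 0 were higher, where 3.74% of all tested probe sets were lower and 2.4% higher. The 9 were 7 of 9 desaturase probe sets, 2 of 8 elongase probe sets and 0 of 6 de novo synthesis probe sets. For 2 of the 7, both of Fads2, the progesterone mean lay under the level filter, so they entered the test only because their signal was high with TGFb1 alone. Leaving them out, 5 of 7 desaturase probe sets were lower, where 3.37% of the 21027 tested probe sets with both group means above the filter were. By gene, 5 of 10 had at least 1 lower probe set (Scd1, Scd2, Fads1, Fads2 and Elovl5), against 5.39% of 10512 tested genes. Fads2 is counted here only through the 2 probe sets whose progesterone mean lay under the filter. In RNA from whole cultures, fewer cells that express a gene and less of its RNA per cell cannot be told apart.

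**Figure D1:**
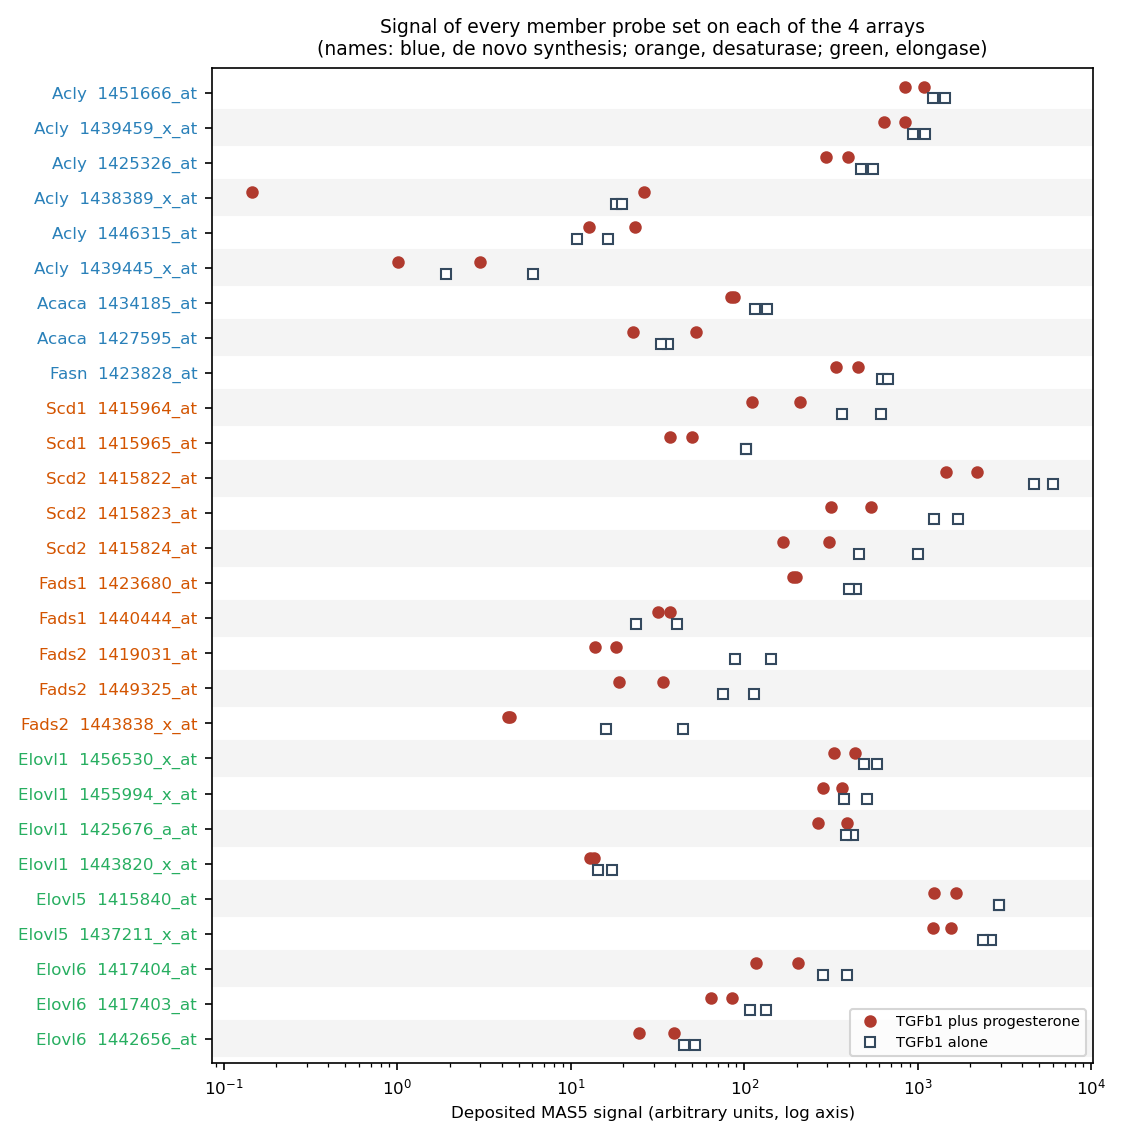
Deposited MAS5 signal (log axis) of each of the 28 probe sets on each array, with TGFb1 plus progesterone as filled circles above TGFb1 alone as open squares in each row. These values are before normalisation, and the progesterone arrays had the lower trimmed means. After normalisation 20 of the 28 probe sets were lower without overlap, where 20.9% of all 45037 probe sets were. The 3 dim Acly probe sets under the level filter overlap. Rows are not comparable with each other in level.

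Acly, the citrate-cleaving enzyme, had 6 probe sets. The brightest (1451666_at) had deposited signals of 1091 and 848 with progesterone, against 1229 and 1436 with TGFb1 alone. After normalisation these were 1116 and 1130 with progesterone, against 1037 and 1318 with TGFb1 alone. The groups did not overlap as deposited and did overlap once the overall brightness of the arrays was matched. The log2 difference was -0.06 ± 0.13 (SE, n = 2 per group) with an adjusted p = 0.837 and a 95% interval from -0.35 to 0.23. The other 2 tested Acly probe sets gave -0.08 ± 0.10 (1439459_x_at, adjusted p = 0.715) and -0.23 ± 0.12 (1425326_at, adjusted p = 0.322), with signals of 847 and 640 against 1101 and 936, and of 397 and 296 against 550 and 471 (progesterone against TGFb1 alone). In both probe sets the progesterone arrays lay under the others, and neither passed. The 3 Acly probe sets under the filter had deposited signals from 0.145 to 26.3 with progesterone, against 1.91 to 19.8 with TGFb1 alone, with overlapping groups.

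Acaca, the carboxylase of the committed step, had 2 probe sets, both above the level filter. Probe set 1434185_at had signals of 87.1 and 83.5 with progesterone, against 135.7 and 115.8 with TGFb1 alone, without overlap, and a difference of -0.35 ± 0.18 (adjusted p = 0.305). Probe set 1427595_at had 52.9 and 22.9 with progesterone, against 36.5 and 33.1 with TGFb1 alone, with the progesterone arrays on either side of the others, and a difference of -0.06 ± 0.28 (adjusted p = 0.927). Fasn, which makes palmitate, had 1 probe set (1423828_at) with signals of 453 and 335 with progesterone, against 618 and 676 with TGFb1 alone. The Fasn groups did not overlap, and its difference of -0.38 ± 0.13 had an unadjusted p = 0.0175 and an adjusted p = 0.135. Its unadjusted 95% interval ran from -0.67 to -0.09. With each array centred on the median of the tested probe sets Fasn passed (-0.52, adjusted p = 0.0449), as it did with the replicate number as a block (-0.38, adjusted p = 0.0449).

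**Figure D2:**
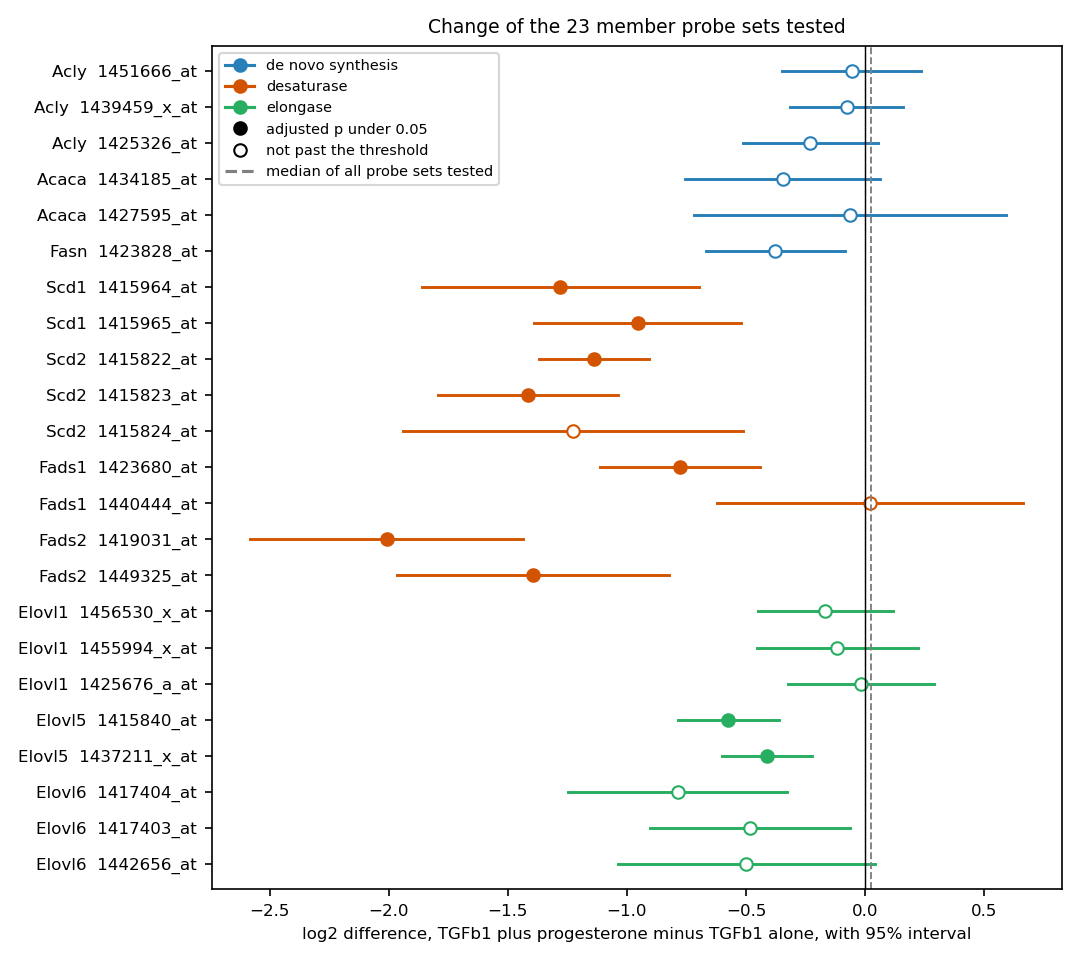
Log2 difference (progesterone with TGFb1 minus TGFb1 alone) of the 23 tested probe sets with its 95% interval from the limma fit, filled where the adjusted p is under 0.05, beside the median of all tested probe sets (0.03, dashed). The 7 filled desaturase points lie between -2.01 and -0.78, and the 6 synthesis points between -0.38 and -0.06 are all open.

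The stearoyl-CoA desaturases had negative differences on all 5 probe sets, and 4 of them passed the test, where 3.74% of all tested probe sets passed as lower. Scd2, the isoform common outside the liver, had signals on probe set 1415822_at of 2189 and 1459 with progesterone, against 6033 and 4671 with TGFb1 alone. Both progesterone arrays lay well under both others, and the difference was -1.14 ± 0.10 (adjusted p = 0.00152), a level 2.20 times higher in TGFb1 alone. Probe set 1415823_at had 538 and 316 with progesterone, against 1694 and 1244 with TGFb1 alone, again without overlap, at -1.41 ± 0.16 (adjusted p = 0.00288). The third Scd2 probe set (1415824_at) had 306 and 166 with progesterone, against 995 and 455 with TGFb1 alone. Its difference, -1.23 ± 0.31, was of the same size, but the arrays within each group lay further apart and it did not pass (adjusted p = 0.0611).

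Scd1, the related isoform best known from liver and fat, had signals of 210 and 110 with progesterone, against 612 and 363 with TGFb1 alone, on probe set 1415964_at, and it fell by 1.28 ± 0.25 on the log2 scale (adjusted p = 0.0251). Probe set 1415965_at had 50.1 and 37.1 with progesterone, against 101.6 and 101.7 with TGFb1 alone, and fell by 0.96 ± 0.19 (adjusted p = 0.0245). Neither Scd1 probe set had overlapping groups. Scd1 and Scd2 are neighbours on chromosome 19, with Scd4 the only other coding gene between their starts in the RefSeq table, and are close relatives in sequence, and how far their probes share target RNA was not examined here.

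The front-end desaturases fell as well. Fads2, which takes the rate-limiting step of polyunsaturated fatty acid synthesis, had signals of 18.2 and 13.8 with progesterone, against 142.0 and 88.7 with TGFb1 alone, on probe set 1419031_at. Its difference was -2.01 ± 0.25 (adjusted p = 0.00376). Probe set 1449325_at had 33.9 and 19.0 with progesterone, against 113.3 and 74.9 with TGFb1 alone, at -1.39 ± 0.25 (adjusted p = 0.0168). With progesterone both lay under the level filter on average, so the size of these differences is set largely by the pseudocount: the first gave -2.79 with a pseudocount of 1 and -1.13 with one of 64, against 16 here. Every difference given is one of log2(signal + 16), and for dim probe sets it is smaller than the true fold would give. The Fads2 probe set under the filter (1443838_x_at) had 4.44 and 4.36 with progesterone, against 44.1 and 15.9 with TGFb1 alone, without overlap. Fads1, the partner desaturase that follows Fads2 in the pathway, had 198.5 and 189.7 with progesterone, against 442 and 399 with TGFb1 alone, on probe set 1423680_at, and fell by 0.78 ± 0.15 (adjusted p = 0.0203). Its dim probe set 1440444_at had 31.7 and 37.4 with progesterone, against 41.1 and 23.7 with TGFb1 alone, so the groups overlapped and the difference was 0.02 ± 0.28 (adjusted p = 0.977). Fads1 and Fads2 are also neighbours on chromosome 19, with 0 coding genes between their starts in the RefSeq table.

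The elongases were divided. Elovl5, which lengthens polyunsaturated chains, had signals of 1664 and 1235 with progesterone, against 2925 and 2941 with TGFb1 alone, on probe set 1415840_at, and fell by 0.57 ± 0.09 (adjusted p = 0.0111). Probe set 1437211_x_at had 1559 and 1226 with progesterone, against 2646 and 2368 with TGFb1 alone, and fell by 0.41 ± 0.08 (adjusted p = 0.0257). In neither probe set did the groups overlap. Elovl6, which extends palmitate to stearate, had 205 and 117 with progesterone, against 391.9 and 285.3 with TGFb1 alone, on its brightest probe set (1417404_at), a difference of -0.79 ± 0.20 that did not pass (adjusted p = 0.0617). Its other probe sets gave -0.48 ± 0.18 (1417403_at, signals of 84.5 and 64.02 with progesterone, against 108.2 and 132.7 with TGFb1 alone) and -0.50 ± 0.23 (1442656_at, 39.5 and 24.6 with progesterone, against 52.0 and 44.7 with TGFb1 alone). After normalisation all 3 Elovl6 probe sets were lower without overlap, as were 20.9% of all 45037 probe sets, and none passed. The brightest passed narrowly with arrays scaled to 1 trimmed mean (adjusted p = 0.0469) or centred on the median of the tested probe sets (adjusted p = 0.0394). It also passed with the values as deposited (adjusted p = 0.00246), where the brightness of the arrays was not matched.

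Elovl1, the elongase of very long saturated chains, passed on none of 3 tested probe sets. Its brightest probe set (1456530_x_at) had 432 and 327 with progesterone, against 582 and 490 with TGFb1 alone, at -0.17 ± 0.12 (adjusted p = 0.476) with a 95% interval from -0.45 to 0.12. Probe set 1455994_x_at had 367 and 285 with progesterone, against 511 and 377 with TGFb1 alone, at -0.12 ± 0.15 (adjusted p = 0.693). Probe set 1425676_a_at had 391 and 264 with progesterone, against 424 and 387 with TGFb1 alone, at -0.02 ± 0.13 (adjusted p = 0.960). The last 2 overlapped after normalisation. The Elovl1 probe set under the filter (1443820_x_at) had 13.7 and 12.96 with progesterone, against 14.3 and 17.2 with TGFb1 alone.

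Set side by side, the classes differed in size of change. The median log2 difference over tested probe sets was -1.23 for desaturases (range -2.01 to 0.02), -0.45 for elongases (-0.79 to -0.02) and -0.15 for de novo synthesis (-0.38 to -0.06), beside 0.03 over all 22518 probe sets tested. Leaving out the 2 Fads2 probe sets under the filter with progesterone, the desaturase median was -1.14, and that of desaturases and elongases together -0.58 in place of -0.78. Without the level filter the medians were -1.20, -0.41 and -0.21 over 10, 9 and 9 probe sets. On single arrays, relative to the mean of TGFb1 alone, the desaturase median was -0.99 and -1.50 with progesterone, against 0.22 and -0.22 with TGFb1 alone. The elongase median was -0.40 and -0.45 with progesterone, against 0.04 and -0.04 with TGFb1 alone, and the synthesis median was -0.13 and -0.25 with progesterone, against 0.05 and -0.05 with TGFb1 alone. In each class both progesterone arrays lay under both others. Of all 28 probe sets, 20 were lower without overlap after normalisation and 0 were higher without overlap, where 20.9% of all 45037 probe sets were lower without overlap. By class these 20 were 9 of 10 desaturase, 7 of 9 elongase and 4 of 9 synthesis probe sets. The difference between the class medians, desaturases and elongases together minus synthesis, was -0.62, and ran from -0.64 to -0.40 over 16 alternative settings. The gap of -0.62 includes the 2 Fads2 probe sets that entered the test only through TGFb1 alone. Without them the medians were -0.58 and -0.15, a smaller gap, and no range over settings was made for it. Members were chosen with results of these data known, so this gap is given with no p, and with 4 arrays no permutation over samples can give a p below 0.333.

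**Figure D3:**
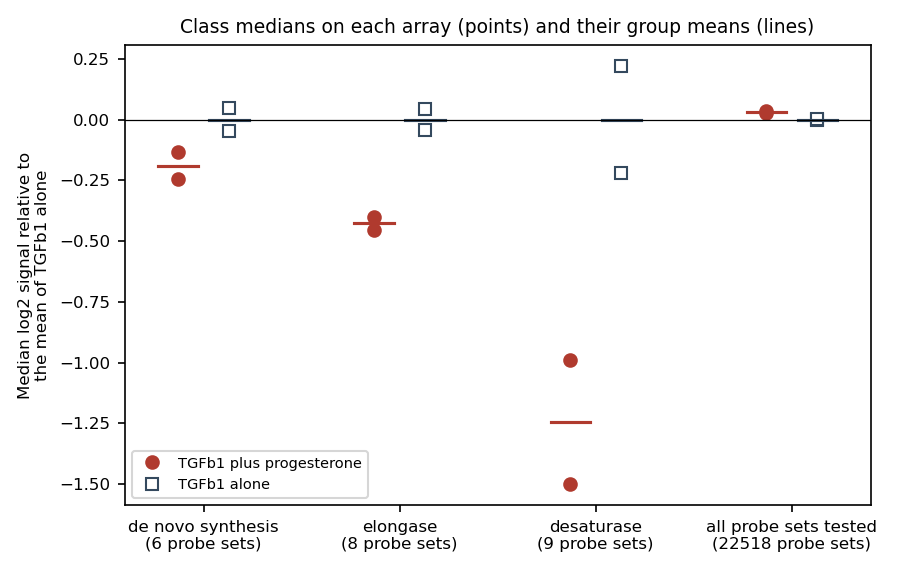
Median log2 signal of each class on each array relative to the mean of TGFb1 alone, with TGFb1 plus progesterone (filled circles) left of TGFb1 alone (open squares) and lines at the group means. The desaturase median lies at -0.99 and -1.50 with progesterone, further from TGFb1 alone than the elongase and synthesis medians, and all probe sets tested lie near 0.

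Calls depended on the arrays and on the filter. Without progesterone replicate 2, 3 of the 23 probe sets were lower (Scd2 and Fads2), where 1.16% of all were. Without progesterone replicate 1, 5 were lower (Scd1, Scd2 and Fads2), where 1.98% of all were. With no level filter, 4 of 28 were lower (Scd2, Fads2 and Elovl5), where 0.799% of 45037 were, and with no intensity trend 5 of 23 were (Scd1, Scd2 and Fads2), where 1.55% of all were. Scd2 probe sets 1415822_at and 1415823_at and Fads2 probe set 1419031_at passed under every alternative that kept all 4 arrays and tested them. The Fads2 probe sets counted in this paragraph entered the test only through TGFb1 alone, except where no level filter was used. With the values as deposited the median of all tested probe sets was -0.16, and relative to it the synthesis median was -0.31 and the desaturase and elongase median -0.86. Of the calls over the whole array, 60.9% were lower after quantile normalisation and 82.0% with the values as deposited.

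**Figure D4:**
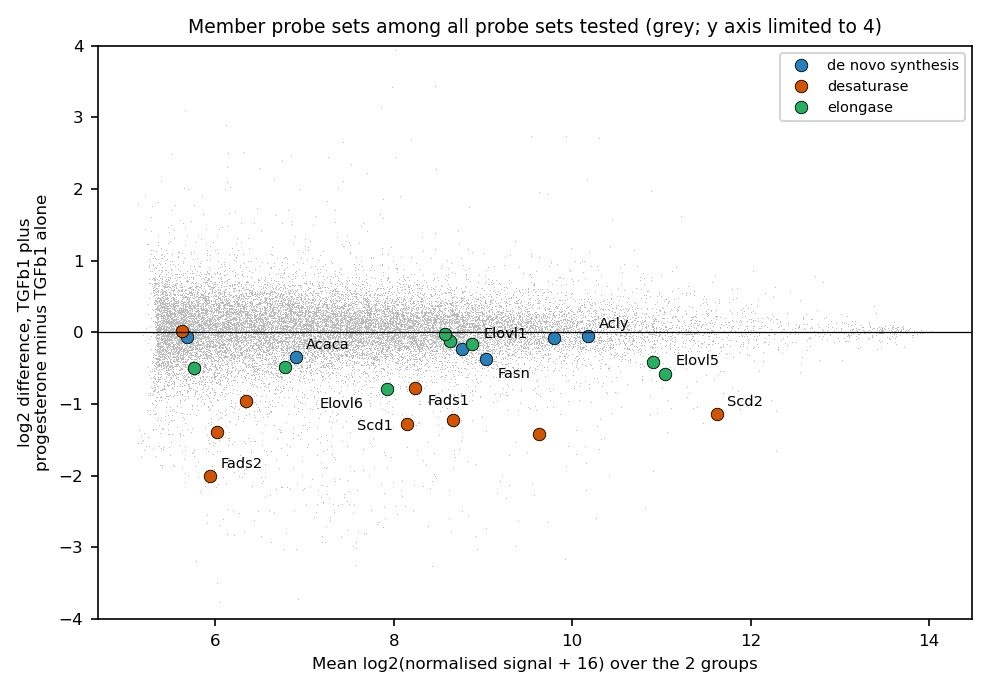
Log2 difference (progesterone with TGFb1 minus TGFb1 alone) of all 22518 tested probe sets (grey) against their mean log2 level, with the 23 member probe sets coloured by class and, for each gene, the probe set of highest mean normalised signal named. Scd2 (-1.14) and Elovl5 (-0.57) lie under the narrow band of bright probe sets, Acly (-0.06) lies within it, and 7 probe sets lie outside the plotted range.

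Genes around these enzymes were read from the same fit, as 6 lists of 73 genes in all, 57 of them tested. Of the 57, 7 had a lower probe set and 0 a higher one, beside the 5.39% of all genes given above, and the median over their 108 tested probe sets was -0.09. Suppliers of citrate, acetyl-CoA and NADPH had 1 of 8 tested genes lower: Idh1, a cytosolic source of NADPH, with 123 and 58.0 with progesterone, against 236 and 206 with TGFb1 alone (-1.06 ± 0.23, adjusted p = 0.0377), while its other probe set gave -0.79 ± 0.26 (adjusted p = 0.129). None of the 6 tested partners of the elongation cycle and other elongases passed, and their 11 tested probe sets lay on both sides of 0, with 6 negative and 5 positive differences. Among them Hsd17b12, the reductase of the second step of the cycle, was at -0.44 ± 0.13 (adjusted p = 0.1005) and -0.40 ± 0.18 (adjusted p = 0.238), and Tecr, the reductase of its last step, at -0.27 ± 0.10 (adjusted p = 0.177) and -0.10 ± 0.11 (adjusted p = 0.62). The dehydratase genes Hacd1 (1.04 ± 0.28, adjusted p = 0.0693) and Hacd3 (0.14 to 0.35 on 3 probe sets) lay the other way. The dehydratase gene Hacd2 did not (-0.29 ± 0.13, adjusted p = 0.266, and -0.18 ± 0.31, adjusted p = 0.791). Hacd1, Hacd2 and Hacd3 are named here after their values were seen. The tested Hacd1 probe set had 43.9 and 47.3 with progesterone, against 9.50 and 16.2 with TGFb1 alone, so it entered the test only through progesterone. None of the 6 tested other desaturases and electron carriers passed either.

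Of 15 tested regulators of lipogenic transcription, 3 had lower probe sets. Srebf2, whose product SREBP2 drives sterol synthesis genes, had 440 and 306 with progesterone, against 794 and 957 with TGFb1 alone, on probe set 1426744_at (-0.88 ± 0.15, adjusted p = 0.0137). Its second probe set (1452174_at) had 283 and 215 with progesterone, against 725 and 605 with TGFb1 alone (-1.06 ± 0.13, adjusted p = 0.00326). Insig1, which holds SREBP precursors in the endoplasmic reticulum and is itself a sterol-regulated gene, had 323 and 217 with progesterone, against 648 and 602 with TGFb1 alone (-0.88 ± 0.13, adjusted p = 0.0083). Mid1ip1, whose product promotes polymerisation of acetyl-CoA carboxylase, had 332 and 233 with progesterone, against 643 and 548 with TGFb1 alone (-0.74 ± 0.13, adjusted p = 0.0162). Srebf1, whose product SREBP1 is the factor most tied to fatty acid genes, had 457 and 308 with progesterone, against 780 and 517 with TGFb1 alone, and did not pass (-0.40 ± 0.17, adjusted p = 0.23). Scap, the escort protein of SREBP, was at 0.31 ± 0.17 (adjusted p = 0.35) and 0.75 ± 0.37 (adjusted p = 0.292) on its 2 probe sets.

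Among regulators of the enzymes themselves, 2 of 10 tested genes were lower. Trib1, an adaptor for protein degradation that restrains lipogenesis in mouse liver, had 62.1 and 63.5 with progesterone, against 186 and 208 with TGFb1 alone (-1.30 ± 0.18, adjusted p = 0.00672). Brca1, a DNA repair protein that also binds acetyl-CoA carboxylase, was lower on 3 of 4 tested probe sets (-2.10 to -1.73) and at 0.15 on the fourth. The brightest (1424629_at) had 82.5 and 43.4 with progesterone, against 362 and 193 with TGFb1 alone. Probe set 1451417_at had 10.5 and 8.23, against 103.6 and 82.7, and 1424630_a_at 30.7 and 4.91, against 90.1 and 83.4. With progesterone both of these lay under the level filter on average, so they entered the test only through TGFb1 alone. The size of their differences depends on the pseudocount. In glycerolipid synthesis 1 of 12 tested genes was lower, the phosphatidate phosphatase gene Lpin1, with 109 and 107 with progesterone, against 227 and 218 with TGFb1 alone on probe set 1418288_at (-0.76 ± 0.16, adjusted p = 0.0341), while its brighter probe set did not pass (-0.36 ± 0.14, adjusted p = 0.195).

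Other marker lists moved with the groups. Proliferation genes were lower on 5 of 5 tested probe sets, with a median of -2.61 and summed signals of 1529 and 669 with progesterone, against 10978 and 6947 with TGFb1 alone. Macrophage and dendritic cell genes were higher on 1 of 8 tested probe sets, that of Lyz2 (2.69), with summed signals of 944 and 843 with progesterone, against 408 and 211 with TGFb1 alone. The other 7 did not pass, 6 with positive differences and that of Itgam at -0.81. Mast cell and basophil genes were higher on 3 of 6, those of Kit (both) and Ms4a2 (1 of 2), while Cpa3, the brightest of them, was at -0.33 and Mcpt8 at 0.13, neither passing, with sums of 936 and 927 with progesterone, against 1406 and 871 with TGFb1 alone. Of the adipocyte and stroma genes, Lpl was higher by 1.99 (82.2 and 83.7 with progesterone, against 21.1 and 1.12 with TGFb1 alone). Adipoq, Fabp4, Col1a1 and Col3a1 lay under the level filter. Lpl lay under it with TGFb1 alone, so it entered the test only through progesterone, and the size of its difference depends on the pseudocount. The same holds for the higher Ms4a2 probe set (1421475_at), with 59.5 and 46.3 with progesterone, against 14.3 and 17.2 with TGFb1 alone. B cell genes passed on 0 of 2 tested probe sets, CD8 T cell genes on 0 of 5, and the NK cell genes lay under the filter. No marker was listed at 0, and the part of proliferation or of other cell types in the falls of desaturases and Elovl5 was not tested.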

How the data were processed

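RNA of 4 samples was measured on 1 expression array each, of 45101 probe sets. The authors deposited 1 linear signal intensity per probe set and array, computed with MAS5 per the submitters' processing notes, and the sources used here do not state its version or the scaling. Detection calls were not used, and the number of arrays limits the precision (2 residual degrees of freedom).

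Because the trimmed means (2% off each end) differed by a factor of 1.43, over the 5% allowed, signals were quantile normalised and taken as log2(signal + 16). The 64 control probe sets and those with a mean not above the median were left out. The test was that of limma 3.58.1 under R 4.3.3 (lmFit, eBayes with an intensity trend, no covariates, tested on simulated data), with Benjamini-Hochberg adjustment over 22518 probe sets, and every adjusted p comes from this test. Symbols came from the platform annotation and, for the other lists, also by Entrez identifier from RefSeq (GRCm38.p6, 34741 of 34945 matched). No build is stated for the array.

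All member probe sets are named. Of other pathway genes, those that passed are named, plus Srebf1, Srebf2, Scap, Insig1, Hsd17b12 and Tecr. Hacd1, Hacd2 and Hacd3 were added after their values were seen. Members and lists were chosen with earlier results of these data known. Alternatives were 2 pseudocounts, 3 scalings, 2 filters, 2 variance models, a replicate block, 2 selections of probe sets and leaving out each array (normalised again, same probe sets tested).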

Additional observations from a re-analysis of the deposited data

How the results depend on the processing

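Over 16 alternatives no called member probe set changed sign. Probe sets lower among the members numbered 4 with no level filter, 5 with no intensity trend and 5 with 1 probe set per gene (10 tested), against 9, and 3 to 10 when an array was left out. Over the whole array 1383 probe sets changed, against 539 with no level filter, 481 with no intensity trend, 879 with 1 probe set per gene, 3122 with the replicate block and 329 (without progesterone replicate 2) to 1748 (without TGFb1-alone replicate 2) when an array was left out. The de novo synthesis median was -0.47 with the values as deposited, -0.29 with arrays centred on the median of the tested probe sets, -0.35 with 1 probe set per gene, -0.23 without _x_at and _s_at probe sets and -0.25 to -0.13 when an array was left out. The desaturase and elongase median was -0.60 with a pseudocount of 64, -1.02 with the values as deposited and -0.80 to -0.57 when an array was left out.

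Signs turned only for 5 probe sets that passed in no setting. Acaca 1427595_at was at 0.0283 as deposited, 0.22 with arrays scaled to 1 trimmed mean, 0.21 centred, and -0.40 to 0.29 when an array was left out. On leaving out an array Acly 1451666_at ran from -0.23 to 0.11, Fads1 1440444_at from -0.21 to 0.25, and Elovl1 1455994_x_at from -0.28 to 0.0494 and 1425676_a_at from -0.12 to 0.0857. Such fits take the remaining array of a pair to vary as the other group does. Scaling moved calls too: scaled to 1 trimmed mean 55.6% of calls were lower, and centred 69.7%.

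The replicate numbers are shared between groups but nothing in the labels says they mark a shared culture. Same-numbered arrays differed in sex-linked genes. Xist (1436936_s_at) had 1390 and 825 with progesterone, against 9.52 and 9.70 with TGFb1 alone. Eif2s3y (1417210_at) had 4.25 and 0.492 with progesterone, against 689 and 727 with TGFb1 alone. For both replicate numbers Xist was high only with progesterone and Eif2s3y only with TGFb1 alone. Same-numbered arrays therefore do not look like cells of the same animal. Whether they share anything else was not tested. Deviations of same-numbered arrays correlated at 0.174 across the 22518 probe sets, in only 2 pairs. With the replicate block 12 member probe sets were lower, Fasn (-0.38, adjusted p = 0.0449), Scd2 1415824_at and Elovl6 1417404_at among them. The causes of these shifts were not tested. Dim probe sets, among them the progesterone arrays of Fads2, have no stated limit of detection.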
